A study of Mus musculus with 16 samples.

Results

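The 10 genes followed here in leukemia-bearing bone marrow are those of the IL-6 receptor, the Janus kinases and 4 feedback inhibitors. They are the ligand receptor Il6ra, its signal-transducing partner Il6st (gp130), the kinases Jak1, Jak2, Jak3 and Tyk2, and the inhibitors Socs1, Socs2, Socs3 and Cish. The genes were chosen by name and not by a measured value, though with earlier results of these data known. All 10 of them were listed among the 16612 genes of the series. RNA was sequenced from WT mice and IL-6 KO mice on a C57BL/6J background, aged 6 to 8 weeks and of both sexes, which had all received 500000 BCR-ABL+, Arf-/- B-ALL cells by tail vein and no drug. On day 8, live marrow cells were sorted into mCherry+ leukemic cells (tumor) and mCherry- cells (stroma), with 4 libraries for each genotype and compartment. The leukemia is 1 transplanted line that carries mCherry, luciferase and an intact Il6 gene, so that "WT tumor" and "IL-6 KO tumor" name the host of the same cells, and the stroma gate takes every mCherry- marrow cell after red cell lysis rather than a connective tissue fraction. The labels do not say whether libraries came from separate mice, so p-values measure the spread between these samples.

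IL-6 binds Il6ra, and this complex then recruits a pair of Il6st chains, whose tails hold the kinases Jak1, Jak2 and Tyk2. The kinases phosphorylate STAT3, which in turn raises Socs3, which binds Il6st and the kinase and shuts the signal off. Jak3 works with the common gamma chain of the IL-2 and IL-7 receptors rather than with Il6st, Socs1 blocks kinases directly, and Socs2 and Cish are classic targets of STAT5, which BCR-ABL keeps active in leukemic B cells. In marrow, neutrophils and monocytes carry much Il6ra, while Il6st is found on most cells.

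Values are the authors' normalized counts, which are read counts scaled to make libraries of 1 table comparable. Low values recurred in steps that give the worth of 1 read, between 0.604 and 1.58 normalized counts in tumor and between 0.399 and 3.41 in stroma, where IL-6 KO stroma 1 had the coarsest step. In tumor the IL-6 KO libraries (0.604 to 1.32) were on the whole deeper than the WT libraries (0.990 to 1.58). In stroma the step was coarser in every IL-6 KO library (1.14 to 3.41) than in any WT library (0.399 to 0.895). The normalized counts of a stroma library summed to 8805689, 9673422, 15945765 and 17470735 in WT and to 44123030, 42342667, 44191950 and 33973016 in IL-6 KO mice, and those of a tumor library to between 38817792 and 44552085 in WT and between 47267047 and 55592959 in IL-6 KO hosts. The sums thus stood apart by genotype in both compartments, so that a difference given here is relative to the bulk of genes and not to the library total. In IL-6 KO stroma most of the sum was 1 RNA, Rn7s1 in libraries 1 to 3 (71.5% to 79.0%) and CT010467.1 in library 4 (61.5%). In WT stroma Rn7s1 made up 19.2%, 22.8%, 37.6% and 50.1% of the sum in libraries 1 to 4. B lineage markers summed to between 139600 and 153600 in tumor libraries and to at most 8774 in stroma, whose erythroid markers summed to between 42230 and 182100. Of the marker lists, B lineage was thus the highest in every mCherry+ library and erythroid in every mCherry- library, and Cd3e, Cd3d, Cd3g and Cd8a of T cells were listed in neither table. The deleted gene, Il6, was not analysed here, so no library's host label could be checked by it. In bulk RNA, fewer cells of a type and less RNA per cell cannot be told apart.

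Of the members, Socs3 had a STAT motif in its promoter window, the 250 bases before the RefSeq start (GRCm38.p6), and the stretch is shown because Socs3 is the best known STAT3 target among them. It lies 174 to 126 bases before the start at chr11:117969492-117969540 on the minus strand, and the capitals mark the motif TTCNNNGAA, which reads the same on both strands.
Socs3 promoter: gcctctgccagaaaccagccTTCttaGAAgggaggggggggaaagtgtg
The motif was in 1 of the 9 member windows, and 2306 of 32851 windows of this length (7.02%) held it. Socs2 had no entry.

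In the sorted mCherry+ fraction (tumor), 3 of the 10 members rose in IL-6 KO hosts, 1 from each role: the receptor Il6ra, the kinase Tyk2 and the inhibitor Socs2. Neutrophil marker RNA was present in these libraries too, and its part in these differences was not tested. No member fell at an adjusted p under 0.05, and Jak1, Jak2, Jak3, Il6st, Socs1, Socs3 and Cish did not pass the test. Of all 14493 genes tested in tumor, 10.6% were higher and 9.16% lower by the same test (limma on log2(normalized count + 1), Benjamini-Hochberg adjusted over all genes tested), so that calls in tumor were common. Leaving out IL-6 KO tumor 1 left 1 member called (Il6ra), and 5 were called when IL-6 KO tumor 2 was left out. The median log2 fold change of the members was 0.31, beside -0.006 over all genes. Scaling each tumor library to its total, an alternative added after the values were seen, moved the median of all genes to -0.28, and none of the 3 calls passed on that scale. On it the log2 difference of Il6ra was 0.38 (limma adjusted p = 0.0627), that of Socs2 0.17 (adjusted p = 0.181) and that of Tyk2 0.022 (adjusted p = 0.901), which were 0.66, 0.45 and 0.30 above that median. In stroma 0 of the 8 members tested passed, and 1 of 12202 genes did (0.00820%). An unadjusted limma p under 0.05 was found for 2 members (Jak3 and Socs3) and for 1117 of all genes (9.15%). Scaling to the total moved the median of all stroma genes to -1.68, and to -0.28 when Rn7s1 and CT010467.1 were left out of the total. On the first of these scales Il6ra (-0.91), Jak3 (-0.53) and Tyk2 (-1.53) had a negative sign and Socs3 stayed positive (0.55); on the second, of these, only Tyk2 turned (-0.089).

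**Figure D1:**
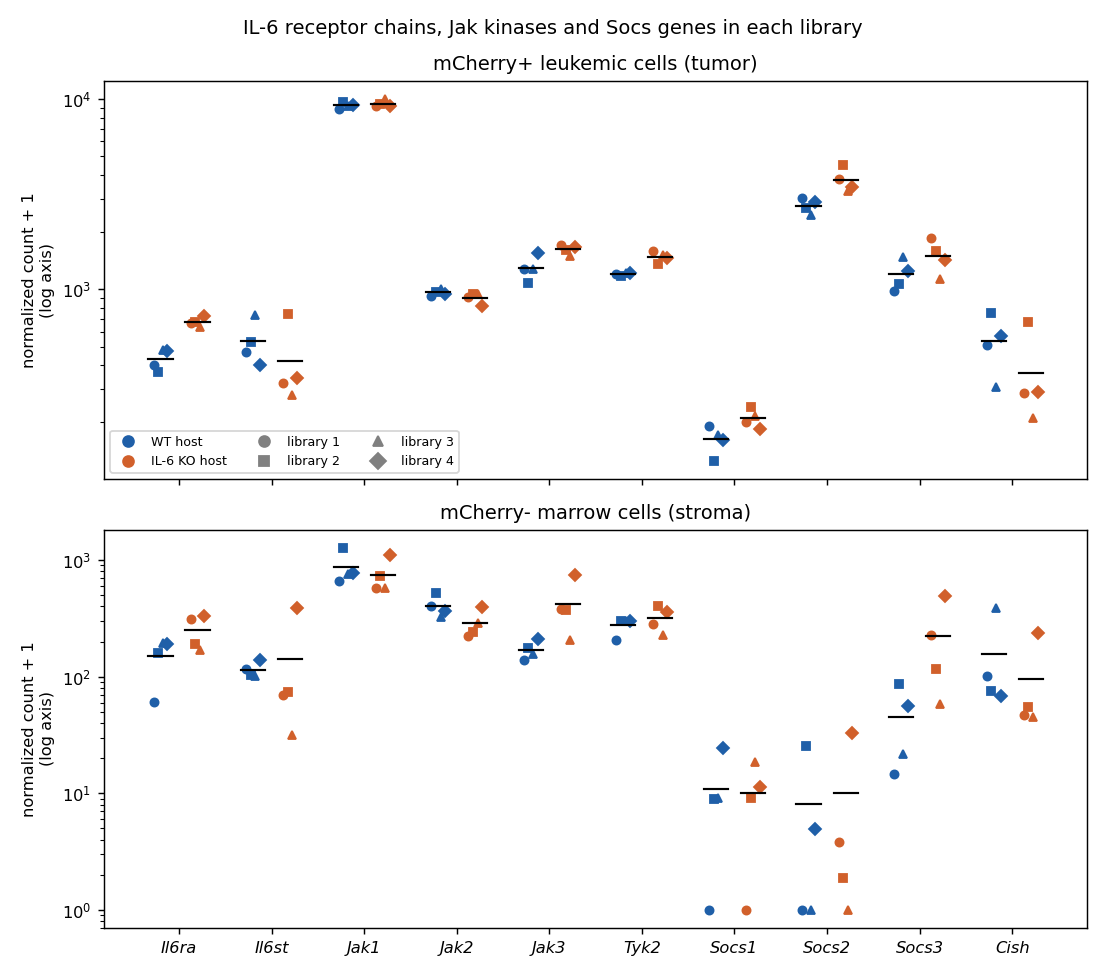
Normalized count + 1 (log axis) of the 10 members in each of the 16 libraries, with tumor above and stroma below, WT hosts in blue and IL-6 KO hosts in orange; symbols give the library number and black bars the mean of 4 libraries. In tumor the IL-6 KO points of Il6ra, Tyk2 and Socs2 all sit above the WT points, while in stroma each member's genotypes overlap.

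Il6ra (GRCm38, chromosome 3, 89864059 to 89913196, minus strand), the chain that captures IL-6, had normalized counts of 401, 365, 481 and 474 in WT tumor and of 666, 669, 636 and 723 in IL-6 KO tumor. The lowest IL-6 KO library stood well above the highest WT library. The difference was a log2 fold change of 0.65 (standard error 0.11, 95% interval 0.40 to 0.91, limma adjusted p = 0.00545). At the protein level, the paper's flow cytometry did not detect IL-6R on leukemia cells in culture or in mice, while many marrow stromal cells carried it. Every IL-6 KO library was above every WT library for 3 members, and for 13.6% of all genes tested in tumor. In stroma Il6ra had 59.4, 159, 193 and 188 in WT and 311, 189, 168 and 331 in IL-6 KO mice, so that 2 IL-6 KO libraries were above the WT range and the other two inside it. That difference of 0.80 on the log2 scale did not pass the test (standard error 0.46, 95% interval -0.20 to 1.81, limma adjusted p = 0.61), and it was 0.41 without WT stroma 1.

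The summed markers of mature neutrophils, cells known for high Il6ra, were like Il6ra higher in every IL-6 KO tumor library than in any WT tumor library. Within IL-6 KO tumor the sum varied far more than Il6ra did. The 10 markers summed to 4502, 4863, 4412 and 5018 in WT tumor and to 15650, 16700, 6639 and 14210 in IL-6 KO tumor, with 7 of the 10 called higher and each of the 10 listed. Per Il6ra count, the marker sum was 9.16 to 13.3 in WT and 10.4 to 25.0 in IL-6 KO tumor. IL-6 KO tumor 3 had the lowest marker sum of its genotype, though one above all WT libraries. Its counts of Il6ra (636), Tyk2 (1521) and Socs2 (3279) were above all WT libraries as well. In stroma the markers summed to between 7608 and 14740 in WT and to 33210, 32080, 7982 and 27570 in IL-6 KO mice, and the sum per Il6ra count overlapped (67.7 to 128 in WT and 47.6 to 170 in IL-6 KO). Of 10 monocyte and macrophage markers, 3 were called higher in tumor (30%, beside 10.6% of all genes) and none lower (9.16% of all genes). They were Ly6c2 (62.4 to 83.1 in WT and 159 to 432 in IL-6 KO hosts, limma adjusted p = 0.00219), Ccr2 and F13a1 (adjusted p = 0.0126 each). The list was split, with 5 positive and 5 negative log2 fold changes and a median of 0.04. Its largest fall was that of C1qa (-0.59, limma adjusted p = 0.135). That list summed to between 680 and 1037 in WT and to 2022, 1738, 859 and 1248 in IL-6 KO tumor, and to between 399 and 904 in WT and between 693 and 1445 in IL-6 KO stroma, where C1qb, C1qc and Cd68 were not analysed. The part of neutrophil and monocyte RNA in the Il6ra, Tyk2 and Socs2 differences was not tested.

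**Figure D2:**
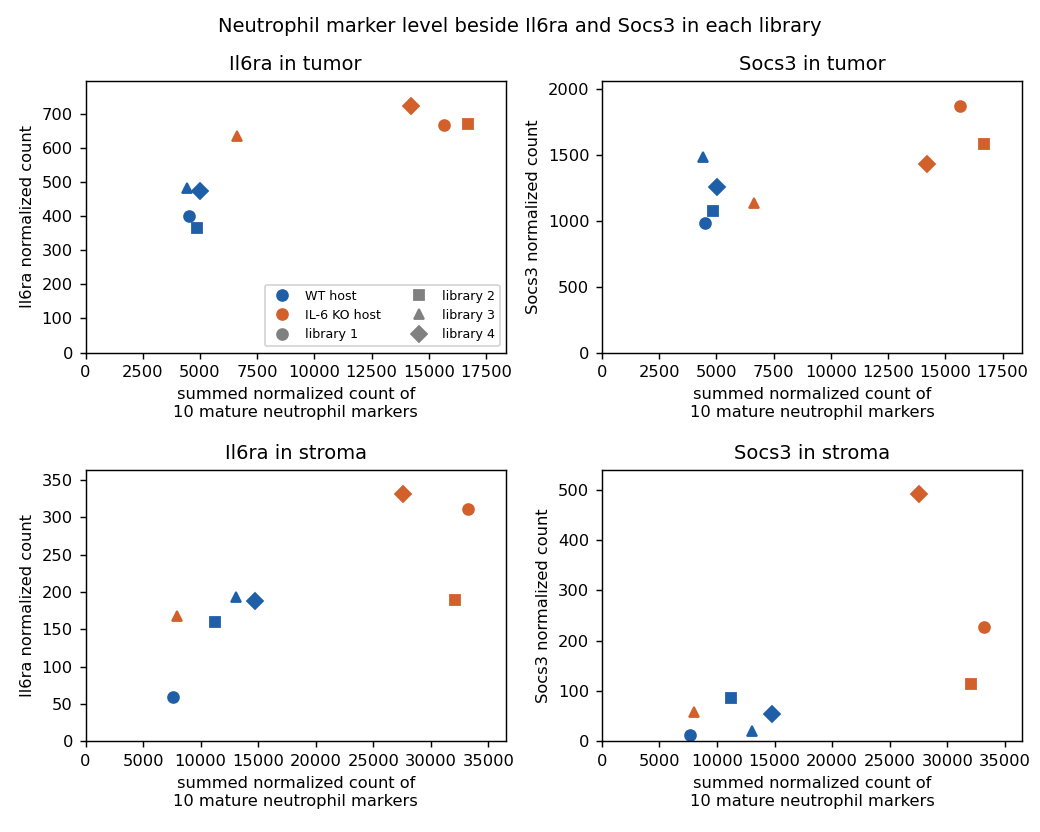
Normalized counts of Il6ra (left) and Socs3 (right) against the summed normalized count of 10 mature neutrophil markers in tumor (top) and stroma (bottom), 1 point per library. In tumor, IL-6 KO library 3 has the lowest marker sum of its genotype (6639). It lies above all WT libraries both in marker sum (at most 5018) and in Il6ra (636, beside at most 481).

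Il6st (chromosome 13, 112464070 to 112510086, plus strand), the chain through which most IL-6 family cytokines signal, showed no difference that passed the test. In tumor its counts were 468, 530, 733 and 400 in WT and 321, 740, 279 and 340 in IL-6 KO libraries. Thus 3 IL-6 KO libraries were below the WT range, and IL-6 KO tumor 2 was the highest library of all 8. The log2 fold change was -0.42 (95% interval -1.09 to 0.24, limma adjusted p = 0.341), and it became -0.73 without IL-6 KO tumor 2 (adjusted p = 0.0280). In stroma Il6st had 115, 103, 100.02 and 138 in WT and 68.4, 72.3, 30.8 and 386 in IL-6 KO mice, again with 3 libraries below the WT range and 1 above it. The stroma difference of -0.36 had an interval from -1.78 to 1.06 (limma adjusted p = 0.897), and it was 0.13 without IL-6 KO stroma 3. By the worth of 1 read, about 112 to 327 reads stood behind the WT stroma values of Il6st. The IL-6 KO stroma values rested on about 20, 55, 18 and 338 reads.

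The ratio of the receptor chains in a library, taken per kb of transcript, ran from 0.841 to 1.51 Il6st per Il6ra in WT tumor and from 0.436 to 1.101 in IL-6 KO tumor. Only IL-6 KO tumor 2 reached into the WT range of this ratio. These values use the longest transcript, and with the mean length of all transcripts the ratio ran from 1.78 to 3.20 in WT and from 0.923 to 2.33 in IL-6 KO tumor. In stroma, with the longest transcript, it ran from 0.515 to 1.93 in WT and from 0.183 to 1.16 in IL-6 KO mice.

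Jak1 (chromosome 4, 101152367 to 101265282, minus strand), the kinase that IL-6 signaling depends on most, was the most abundant member and had the smallest tumor difference. Its counts were 8882, 9712, 9229 and 9323 in WT tumor and 9197, 9443, 9999 and 9158 in IL-6 KO tumor, with the genotypes fully overlapping. The log2 fold change of 0.02 had an interval of -0.10 to 0.15 (limma adjusted p = 0.793) and its sign turned under quantile normalization (-0.039) and without IL-6 KO tumor 3 (-0.0026). Jak2 (chromosome 19, 29251828 to 29313080, plus strand), the kinase of the erythropoietin and thrombopoietin receptors, had between 927 and 1009 in WT and between 814 and 950 in IL-6 KO tumor. Its difference of -0.09 (interval -0.27 to 0.09, limma adjusted p = 0.456) became 0.080 once the dependence on transcript GC and length was fitted and taken out of every library.

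Tyk2 (chromosome 9, 21104068 to 21131243, minus strand), the partner kinase of the interferon and IL-12 receptors, had 1206, 1176, 1222 and 1222 in WT tumor, the tightest group of any member. In IL-6 KO tumor it had 1583, 1365, 1521 and 1461, all above the WT libraries. The log2 fold change was 0.30 (standard error 0.07, 95% interval 0.13 to 0.46, limma adjusted p = 0.0215). The call was lost with that dependence removed (0.21, adjusted p = 0.214), and without IL-6 KO tumor 1 (adjusted p = 0.0692) or IL-6 KO tumor 4 (adjusted p = 0.0559). The GC content of the longest Tyk2 transcript is 57.0%, within the 44.3% to 61.0% of the members.

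Jak3 (chromosome 8, 71676296 to 71690575, plus strand), the lymphoid kinase of the common gamma chain, had 1285, 1075, 1275 and 1557 in WT and 1720, 1617, 1495 and 1661 in IL-6 KO tumor, where WT tumor 4 lay above the lowest IL-6 KO library. The difference of 0.33 (standard error 0.11, interval 0.09 to 0.58) had an adjusted p of 0.0604 by limma, and one of 0.0236 without WT tumor 4. In stroma Jak3 had 137, 177, 154 and 210 in WT and 376, 371, 205 and 740 in IL-6 KO mice. Apart from IL-6 KO stroma 3, which fell just under WT stroma 4, the IL-6 KO libraries were above all WT libraries. That log2 fold change of 1.18 (standard error 0.41, interval 0.29 to 2.08) had an unadjusted limma p of 0.0137 and an adjusted p of 0.44. Jak3 values are uncertain because Jak3 and Insl3 overlap on the same strand and share 330 windows of 75 nucleotides, the read length.

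The other kinases did not pass the test in stroma. Jak1 had between 663 and 1276 in WT and between 572 and 1115 in IL-6 KO stroma (log2 difference -0.22, interval -0.95 to 0.51). Jak2 had 404, 524, 321 and 367 in WT and 221, 240, 286 and 395 in IL-6 KO stroma, where all but IL-6 KO stroma 4 were below the WT range (-0.51, interval -1.24 to 0.22, limma adjusted p = 0.661). Tyk2 had 205 in WT stroma 1, 300 in each of the other WT libraries and between 228 and 399 in IL-6 KO stroma (log2 difference 0.18, interval -0.55 to 0.92). With 1 library left out, the stroma difference ran from -0.43 to -0.021 for Jak1 and from 0.045 to 0.33 for Tyk2.

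**Figure D3:**
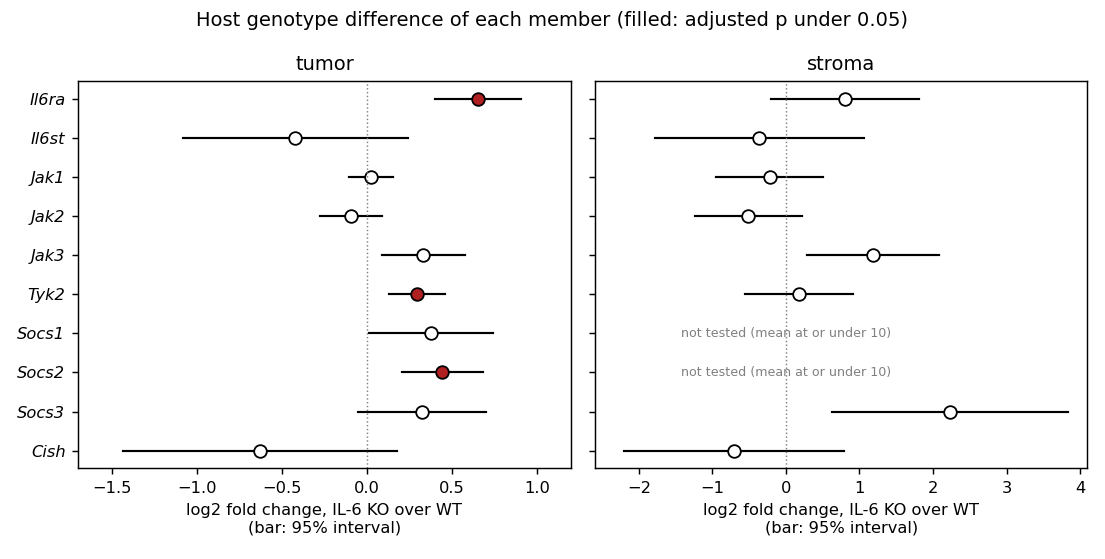
Log2 fold change of each member, IL-6 KO over WT, with its 95% interval (horizontal bar) in tumor (left) and stroma (right), from limma on log2(normalized count + 1); filled points have an adjusted p under 0.05 and the x axes differ. In tumor Il6ra (0.65), Socs2 (0.44) and Tyk2 (0.30) are filled, no stroma point is, and the interval of each of the 8 members tested in stroma is wider there than in tumor.

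Because each kinase was measured in the same library, shares of the 4 kinases do not depend on a library's scale. Per kb, Jak1 made up 69.7% to 73.8% of the 4 kinases in WT tumor and 66.7% to 70.1% in IL-6 KO tumor. In stroma its share was 45.9% to 55.3% in WT and 37.3% to 43.1% in IL-6 KO mice, with no overlap. Jak3 took 9.29% to 15.0% of the kinases in WT stroma and 18.6% to 32.5% in IL-6 KO stroma, again with no overlap. Tyk2 took 9.09% to 9.75% in WT tumor and 10.1% to 11.7% in IL-6 KO tumor. The Jak1 share was higher in every tumor library than in any stroma library. The shares depend on the transcript length used: with the mean length of all transcripts Jak1 took 72.1% to 79.0% in WT and 64.8% to 69.9% in IL-6 KO stroma, and Jak3 4.04% to 7.19% and 9.17% to 16.6%, still with no overlap. These shares are a description, with no test. They make up a fixed total, so those of Jak1 and Jak3 are not separate results. The stroma counts of either gene overlapped between genotypes, and how often shares of other genes stand apart was not examined.

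**Figure D4:**
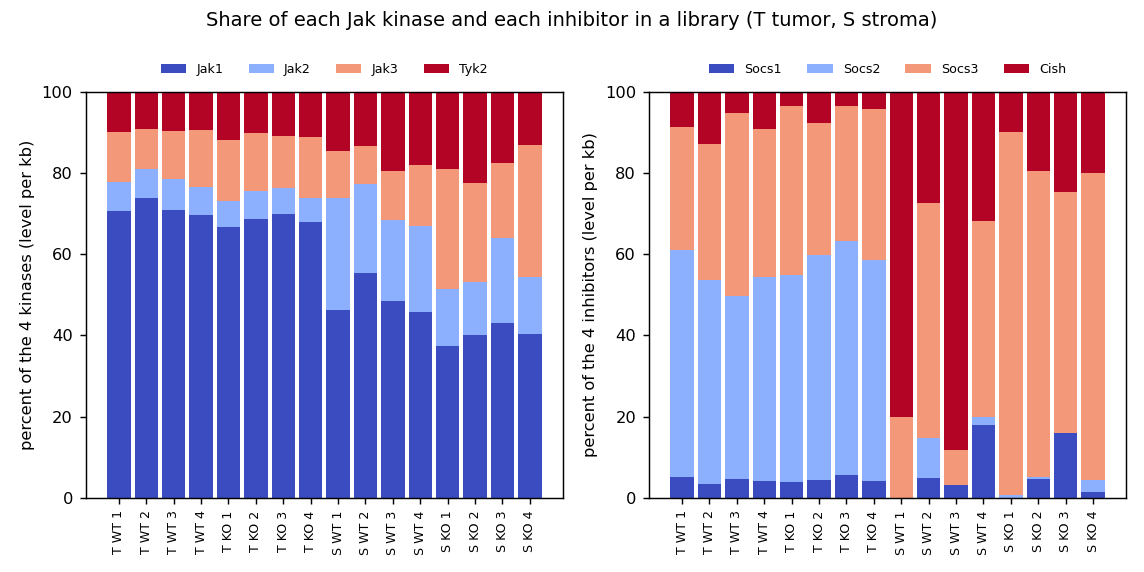
Percent of the 4 Jak kinases (left) and of the 4 inhibitors (right) that each gene makes up in a library, from levels per kb of the longest transcript; bars are the 16 libraries (T tumor, S stroma, then host and library number). Jak1 fills most of every tumor bar (66.7% to 73.8%), and Socs2 with Socs3 fill the inhibitors of tumor, while Socs3 and Cish fill most of those of stroma.

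Socs2 (chromosome 10, 95385362 to 95417180, minus strand), the growth hormone and STAT5 feedback inhibitor, was the most abundant inhibitor of leukemic cells and was nearly silent in stroma. It had 3022, 2665, 2466 and 2871 in WT tumor and 3818, 4486, 3279 and 3473 in IL-6 KO tumor, with the genotypes apart. The log2 fold change was 0.44 (standard error 0.11, 95% interval 0.21 to 0.68, limma adjusted p = 0.0192). The adjusted p went to 0.0546 without IL-6 KO tumor 1, to 0.0520 without WT tumor 2 and to 0.0573 without WT tumor 3. In stroma Socs2 was listed at 0 in WT libraries 1 and 3 and IL-6 KO library 3, and at most at 32.2, so that it fell under the filter (a mean over 10) and was not tested. Socs2 shares 300 windows of 75 nucleotides with Gm9847, and reads could have been split between them.

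Cish (chromosome 9, 107296026 to 107302784, plus strand), the other STAT5 feedback inhibitor, did not follow Socs2. Its tumor counts were 512, 752, 307 and 568 in WT and 285, 674, 210 and 288 in IL-6 KO libraries, 3 of which lay under the lowest WT library. IL-6 KO tumor 2 was the exception, as it was for Il6st. The log2 fold change of -0.63 (standard error 0.36, interval -1.43 to 0.18) did not pass (limma adjusted p = 0.243), and without IL-6 KO tumor 2 it was -0.97 (adjusted p = 0.0349). In stroma Cish had 99.4, 73.7, 385 and 66.8 in WT and 45.5, 54.4, 43.7 and 238 in IL-6 KO mice, with 1 high library in each genotype (-0.71, interval -2.20 to 0.78, limma adjusted p = 0.779). That difference was -0.14 without WT stroma 3 and -1.28 without IL-6 KO stroma 4. By the worth of 1 read, about 134 to 430 reads stood behind the WT stroma values of Cish. The IL-6 KO stroma values rested on about 13, 41, 25 and 208 reads.

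Socs3 (chromosome 11, 117966079 to 117970047, minus strand), the STAT3-driven inhibitor of Il6st, had the largest difference of any member in stroma and did not pass the test in either compartment. In stroma it had 13.5, 85.5, 20.9 and 55.2 in WT and 228, 114, 57.5 and 491 in IL-6 KO mice. Apart from IL-6 KO stroma 3, whose 57.5 lay between 2 WT libraries, the IL-6 KO libraries were higher than all WT libraries. The log2 fold change was 2.24 (standard error 0.74, interval 0.63 to 3.84) with an unadjusted limma p of 0.0102 and an adjusted p of 0.432. About 18 to 214 reads stood behind the WT values and 33 to 430 behind the IL-6 KO values, by the worth of 1 read. IL-6 KO stroma 3 was also the IL-6 KO library with the lowest neutrophil marker sum (7982), and the part of neutrophil RNA in the Socs3 difference was not tested. In tumor Socs3 had 982, 1071, 1482 and 1255 in WT and 1872, 1584, 1131 and 1429 in IL-6 KO libraries, with overlap (0.32, interval -0.05 to 0.70, limma adjusted p = 0.201).

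Socs1 (chromosome 16, 10782240 to 10785536, minus strand), the direct kinase inhibitor induced by interferons, was low in both compartments. It had 191, 124, 171 and 161 in WT tumor and 200, 239, 214 and 183 in IL-6 KO tumor, where only IL-6 KO tumor 4 was below the highest WT library. That difference of 0.38 had an interval of 0.01 to 0.74 and an adjusted p of 0.129 by limma. In stroma Socs1 was listed at 0 in library 1 of each genotype and reached 23.2 at most, and it was not tested.

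Among the inhibitors of tumor, per kb, Socs2 made up 45.2% to 56.0% in WT and 51.1% to 57.9% in IL-6 KO libraries, and Socs3 30.3% to 45.1% and 32.6% to 41.6%. Stroma had another make-up. There Socs3 ran from 8.804% to 58.1% in WT and from 59.6% to 89.6% in IL-6 KO libraries, and Cish from 27.2% to 88.2% and from 9.74% to 24.6%, neither with any overlap of the genotypes. Socs3 thus was the leading inhibitor transcript in every IL-6 KO stroma library, whereas the lead differed among WT stroma libraries. The shares of a library make up a fixed total, so those of Socs3 and Cish are not separate results. The stroma counts of either gene overlapped between genotypes, and how often shares of other genes stand apart was not examined.

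Whether host IL-6 mattered differently for leukemic cells and stroma was tested by the interaction of genotype and compartment over the 8 members with a mean over 10 in both tables. None of them passed (1, Socs3, had an unadjusted p under 0.05), and 1 of 10887 genes did (0.00919%), with 954 genes at an unadjusted limma p under 0.05. The largest member difference was that of Socs3, whose change was smaller in tumor than in stroma by -1.91 on the log2 scale (interval -3.63 to -0.20, unadjusted p = 0.0309, adjusted p = 0.505). That of Jak3 was -0.85 (interval -1.82 to 0.12, adjusted p = 0.637). For Il6ra it was -0.15 with an interval from -1.19 to 0.89. Among the 8 members tested in stroma none had all IL-6 KO libraries above the WT libraries (2.54% of genes did) or below them (3.25%), and in tumor 0 of 10 were all below (12.0%).

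Levels of different genes were compared per kb of the longest transcript and as percentiles among 10534 protein-coding genes listed in both tables. In WT tumor Jak1 led with 1893 ± 69.5 (SD, n = 4) normalized counts per kb, at percentile 90.6 (median of 4 libraries). Socs2 followed with 650 ± 57.2, Socs3 with 469 ± 86.6 and Jak3 with 321 ± 48.8, then Tyk2 with 250 ± 4.44 and Jak2 with 192 ± 7.003. Down to Cish at 114 ± 39.0, each gene's libraries were apart from those of the next on this length. Socs2 (at least 581.4) was only narrowly apart from Socs3 (at most 580.8), and so was Socs3 (at least 384.9) from Jak3 (at most 384.5). Below Jak2, the libraries of Cish, Il6st (61.4 ± 16.5), Socs1 (55.7 ± 9.62) and Il6ra (49.8 ± 6.55) overlapped, each gene with the next. On this length Il6ra thus had the lowest mean of the members in tumor of WT hosts, at percentile 16.5. In IL-6 KO tumor it had 78.0 ± 4.203 per kb and stood at percentile 20.8, above Cish (77.6 ± 44.6), Socs1 (71.9 ± 8.14) and Il6st (48.4 ± 24.8), with neighbours in this order overlapping. With the mean length of all transcripts Il6ra (112) came after Cish (165) and Il6st (148) there. In WT tumor, with that mean length, Jak3 and Tyk2 overlapped, and Cish stood between Tyk2 and Jak2 and overlapped both. There Socs1 (56.9) was the lowest member, below Il6ra (71.8), with overlap.

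Ranks within stroma differed from those within tumor for several members. Jak1 again led in WT stroma at percentile 88.2, followed by Jak2 (75.2), Tyk2 (69.8) and Jak3 (58.5), with Jak2 apart from Jak1 and Tyk2, and Tyk2 overlapping Jak3. Jak2 stood at percentile 35.8 in WT tumor, so its place among the genes of a library was far higher in stroma. The same held for Il6ra, at percentile 39.2 in WT stroma and 47.8 in IL-6 KO stroma. Socs2 went the other way, from percentile 70.7 in WT tumor to 2.4 in WT stroma. The tables were normalized separately, so these ranks are set side by side without a test.

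**Figure D5:**
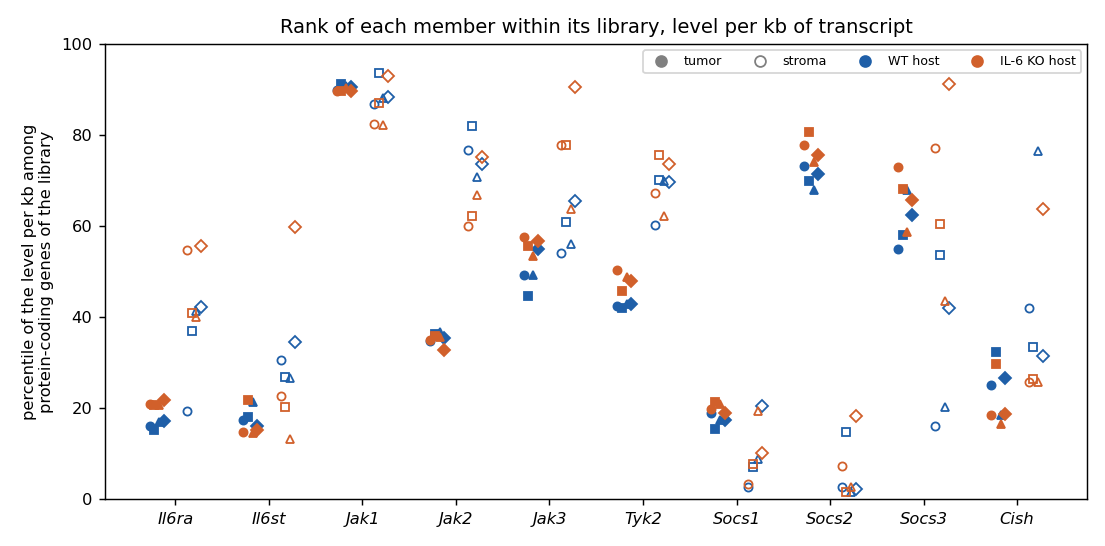
Percentile of each member's level per kb of longest transcript among 10534 protein-coding genes of the same library, with filled symbols for tumor, open symbols for stroma, blue for WT hosts and orange for IL-6 KO hosts; symbol shape gives the library number as in the plot of normalized counts. Jak2 and Tyk2 rank higher in every stroma library than in any tumor library, Socs2 ranks lower in every stroma library, and Il6ra ranks higher in all stroma libraries but WT library 1.

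Of 48 other genes of the pathway (ligands, other receptors, STATs, adaptors, phosphatases and the ubiquitin ligase subunits that the SOCS box recruits), 43 were tested in tumor, of which 5 rose (11.6%, beside 10.6% of all genes) and 4 fell (9.30%, beside 9.16%), shares near those of all genes. Their median log2 fold change was 0.02. Those that fell included Eloc (-0.72, limma adjusted p = 0.000938) and Elob (-0.29, adjusted p = 0.0435), the elongin subunits that bind a SOCS box, and Grb2 (-0.44, adjusted p = 0.00678), an adaptor that also binds BCR-ABL. Eloc had 1636, 1882, 1740 and 1664 in WT and 1024, 1018, 1139 and 1012 in IL-6 KO tumor, and the smallest p of the list. Those that rose included the phosphatase Ptpn11 (0.38, adjusted p = 0.00785), which docks on Il6st at the site that Socs3 uses, the adaptor Gab2 (0.32, adjusted p = 0.0218) and Stat5a (0.60, adjusted p = 0.0343), the last from 1480, 826, 1312 and 1196 to 2038, 1807, 1505 and 1850. The other two were the phosphatase Ptpn1 (0.29, adjusted p = 0.0346) and Stat5b (0.24, adjusted p = 0.0388). Elob, Ptpn1 and Stat5b were named after their values were seen. The count went from 9 to 5 without WT tumor 3, IL-6 KO tumor 1 or IL-6 KO tumor 4.

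In stroma 41 of these genes were tested and none passed. Of them, 3 had an unadjusted limma p under 0.05, beside 1117 of all 12202 genes (9.15%). Socs6, a SOCS gene known from insulin and Kit signaling, had 12.7, 30.0, 10.0 and 11.4 in WT and 210, 79.96, 149 and 50.8 in IL-6 KO stroma, with no overlap (log2 fold change 2.79, standard error 0.65, adjusted p = 0.302). The other two were the ligase subunit Rnf7 (-1.50, adjusted p = 0.531) and the IL-11 receptor Il11ra1 (2.40, adjusted p = 0.537). Stat3 itself had a log2 fold change of 0.67 in stroma (interval -0.22 to 1.57, adjusted p = 0.635) and was named after its values were seen.

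Genes that STAT3 is known to raise were tested as 11 of a list of 12, and 4 of them rose in tumor (36.4%, beside 10.6% of all genes), with 0 lower (9.16% of all genes) and a median log2 fold change of 0.53. Lcn2, a neutrophil granule and acute phase protein, had 262, 186, 288 and 292 in WT and 1373, 1044, 570 and 1338 in IL-6 KO tumor (2.01, limma adjusted p = 0.00213). Lrg1, another neutrophil granule protein, rose by 2.18 (adjusted p = 0.00732), and in both genes IL-6 KO tumor 3, the library of lowest neutrophil marker sum, was the lowest of its genotype. The kinase gene Pim1 rose by 0.53 (adjusted p = 0.0252) and the adhesion molecule Icam1 by 0.28 (adjusted p = 0.0391), while Cebpb (1.298, adjusted p = 0.0543) and Mcl1 (0.22, adjusted p = 0.117) did not pass. In stroma none of 11 passed by limma, and the median of the 11 was 0.51. An unadjusted p under 0.05 was found for 2 (Mcl1 and Il4ra), beside 9.15% of all stroma genes. There Mcl1, a survival factor of myeloid cells, had 866, 1014, 1009 and 1531 in WT and 2434, 3030, 1635 and 4288 in IL-6 KO mice, apart in all libraries (1.31, adjusted p = 0.324).

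Of 10 genes listed as STAT5 targets, not all of which STAT5 raises (Bcl6 is among them), Pim1 was the only gene called in tumor. Pim1 is on both lists, and 10.6% of all genes were called higher. It had 8637, 7519, 7947 and 8463 in WT and 12240, 8518, 13638 and 13287 in IL-6 KO libraries, with IL-6 KO tumor 2 inside the WT range. The median of this list was 0.12. Cdkn1a (0.45, limma adjusted p = 0.0554), Osm (0.38, adjusted p = 0.0688) and Pim2 (-0.52, adjusted p = 0.146) came next. In stroma 0 of 8 passed, with Id1 (1.21) and Bcl2l1 (-0.92) at unadjusted limma p-values of 0.0319 and 0.0327 and an adjusted p of 0.502 each. Of all stroma genes, 9.15% had an unadjusted p under 0.05.

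Genes whose pattern over the 8 libraries of a table was most like that of a member were ranked by Pearson's r of log2 values, as a description. For Il6ra in stroma these were Uvrag (0.988), Gpr137 (0.978) and Slc35b3 (0.971) among 7627 genes, and for Socs3 they were Ppp4r3b (0.963), Pag1 (0.954) and Bmt2 (0.953). For Socs2 in tumor they were Plekhm2 (0.994), Tsen34 (0.984) and Psmg4 (0.983) among 10282 genes, and for Cish they were Haspin (0.981), Gng5 (0.980) and Insr (0.969). The 8 libraries share host genotypes and sequencing depth in part, and no p is given.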

How the data were processed

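The authors sorted mCherry+ and mCherry- marrow cells, made directional libraries after ribosomal RNA depletion, sequenced 75-nucleotide single-end reads, quantified them on mm10 with salmon 1.3.0 (GC and sequence bias corrected) and normalized each compartment separately with DESeq2 1.28.1. The normalized counts they deposited form a signal on a common scale; only about 1 in 10 or fewer values is a whole multiple of the worth of 1 read, so whole reads were not recovered and depth is approximate. The authors' deposited DESeq2 results hold means, fold changes and p-values of their own comparisons and were not used. The strand setting of the counting is not given in the sources used here, and Il6ra, Jak1, Tyk2 and Cish have antisense neighbours whose reads could mix with theirs.

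Genes were matched to GENCODE M21 (GRCm38) for 13338 of 13344 stroma and 15069 of 15080 tumor identifiers. log2(normalized count + 1) of genes with a mean over 10 was tested with limma 3.58.1 (R 4.3.3), with a variance trend, two-sided and Benjamini-Hochberg adjusted with a threshold of 0.05, in 1 fit per compartment, plus an interaction fit over both with weights per compartment. Tests were tried on simulated data first. Levels used Python 3.11.15 with pandas 2.3.3. The members and lists were chosen with earlier results of these data known. Named genes are all members, up to 6 genes per list and compartment with the smallest p, and 3 genes of like pattern per chosen member. The result for 1 gene that this rule gives is not reported here. Alternatives were pseudocounts of 0.5 and 5, other filters, quantile normalization, median centring, array weights, a replicate block, removal of GC and length trends (loess, span 0.3), transcript mean length, and each library left out in turn; scaling to library totals, and shares by mean length, were added after the values were seen.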

Additional observations from a re-analysis of the deposited data

Results flagged for a closer look

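In 8 of the 40 groups of 4 libraries (10 members, 2 compartments, 2 genotypes), 1 library lay so far from the others that its gap to the nearest of them took up more of the group's range than Dixon's 95% critical value, which chance gives in about 1 in 20 groups. Of these, 3 were in WT stroma: Tyk2 at 204.5 in library 1, the only low one, Socs2 at 24.35 in library 2 and Cish at 384.5 in library 3. A further 3 were in IL-6 KO stroma and all in library 4, where Il6st had 386.4, Socs2 32.19 and Cish 237.9 normalized counts. The last 2 were in IL-6 KO tumor and both in library 2, with Il6st at 740.4 and Cish at 674.1. Without IL-6 KO tumor 2, Il6st and Cish were both lower in IL-6 KO tumor at an adjusted p under 0.05, as given above.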

How the results depend on the processing

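Under the 18 alternatives chosen at the start, Il6ra in tumor kept its call (log2 fold change 0.58 to 0.74, limma adjusted p 0.00202 to 0.0233) and no stroma member was called. Calls were lost for Tyk2 and Socs2, as given beside them, and for Tyk2 also with the GC trend removed together with the block (adjusted p = 0.190). Calls were gained by Jak3 with array weights (adjusted p = 0.0407) or without WT tumor 4, by Il6st and Cish without IL-6 KO tumor 2, and by Cish in both fits with the block. Over these and the 2 scalings below, 174 of 200 values of tumor members kept direction and call, 7 gained a call, 13 lost it and 6 changed sign.

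Scaling to library totals was added after the values were seen. It gave 1 tumor member called (Jak2, lower, adjusted p = 0.0341), 6292 stroma genes, 5 stroma members (all lower) and 21 other pathway genes in stroma, with signs turned for Il6ra (-0.91), Jak3 (-0.53) and Tyk2 (-1.53) in stroma and Jak1 in tumor (-0.25). With Rn7s1 and CT010467.1 left out of the totals, 0 tumor members (Il6ra 0.41, adjusted p = 0.0513), 2 stroma genes and 0 stroma members were called, and signs turned for Tyk2 in stroma (-0.089) and Jak1 in tumor (-0.22).

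Array weights gave 4 stroma genes called in place of 1, and 14 other pathway genes in tumor in place of 9; equal weights gave 3 interaction calls in place of 1. Removing the GC trend with the replicate block gave 1669 tumor genes called in place of 2870. With 1 library left out, calls ranged from 1 to 3 in stroma, from 1572 to 3328 in tumor, from 1 to 5 among tumor members, from 5 to 10 among other pathway genes in tumor, and from 0 to 8 in the interaction, 8 without IL-6 KO tumor 2. Signs turned for Jak1 in tumor with quantile normalization (-0.039) and with 1 library left out (-0.0026 to 0.047), for Jak2 in tumor with the GC trend removed (0.080, and 0.080 with the block), and for Il6st in stroma with 1 library left out (-1.07 to 0.13). Interaction differences with 1 library left out ran from -0.32 to 0.24 for Il6ra, from -0.56 to 0.65 for Il6st, from -0.035 to 0.25 for Tyk2 and from -0.49 to 0.65 for Cish. The cause of these shifts was not tested.

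Same-numbered libraries of the 2 genotypes correlated between -0.029 and 0.126 in stroma and between -0.019 and 0 in tumor, so the numbers were not taken to pair libraries. With the replicate number as a block, tumor calls were 2230, other pathway calls 5 and member calls 4, Cish being added (adjusted p = 0.0408). With the mean length of all transcripts in place of the longest, Jak1 still led both compartments, and Il6ra ranked 9th of 10 in WT and in IL-6 KO tumor. Stroma spread (residual SD 0.857 on the log2 scale, beside 0.212 in tumor) limits what 4 libraries per genotype can show there.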
